A study of Trichoderma reesei with 6 samples.

Results

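The genes described here are those of Trichoderma reesei whose transcripts stood highest on lactose, lower on glycerol and lowest on glucose, with a clear step between each pair of neighbours. They were selected on the array values themselves. A gene is a member when the mean log2 signal of its glycerol arrays lies at least 1 above that of its glucose arrays, and the mean of its lactose arrays at least 1 above that of its glycerol arrays, which is a step of at least 2-fold each time. Of 9126 features on the array, 139 met both steps, and 19 of these, among them the cellobiohydrolase gene cel7a and the regulator gene xyr1, are left out by the rule, so that 120 members remain. The steps of the members are therefore a description of how they were chosen, and no test of them is given.

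All cultures were of strain QM9414, an early mutant of T. reesei that secretes more cellulase than the wild type, and the labels name no further genetic change in any group. The cultures grew on lactose, on glycerol or on glucose, each at 10 g/l, and each carbon source has 2 arrays. By the sample labels the lactose cultures were taken at 28 h and the glycerol and glucose cultures at 24 h, while the study's methods give 24 h for all, so that an effect of the later time and of lactose cannot be told apart by these labels. The glycerol and glucose cultures have the same time in both sources. The labels speak of duplicate flasks and also of mixed replicates, so the spread between the 2 arrays of a group may be technical in part. Values are log2 signals of NimbleGen arrays, in which each gene is read by several long probes, and a difference of 1 is a 2-fold change. Across genes the 2 arrays of a group correlated with r = 0.996 or more, and array medians lay between 10.80 and 10.85. Of 10 genes that the study annotates as cellobiohydrolase, endoglucanase or xylanase, 9 were higher on lactose than on glucose and 1 was lower, and these genes had been chosen by the study on the same arrays. Here and below, a gene outside the members is called higher or lower when it differs over 2-fold and its Benjamini-Hochberg adjusted p is under 0.05 in a limma fit of all 9126 features.

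Lactose is a disaccharide of glucose and galactose that the fungus takes up or splits outside the cell, and it is the soluble sugar used in industry to induce cellulases. Glucose represses many genes of this fungus through the zinc finger repressor CRE1, a mechanism called carbon catabolite repression. Glycerol is commonly used as a carbon source that neither represses nor induces cellulase formation. Permeases of the major facilitator superfamily (MFS), which carry sugars, organic acids and other small molecules across membranes, and fungal regulators with a Zn2Cys6 zinc cluster are large gene families in filamentous fungi, and members of both are often subject to this kind of control.

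**Figure D1:**
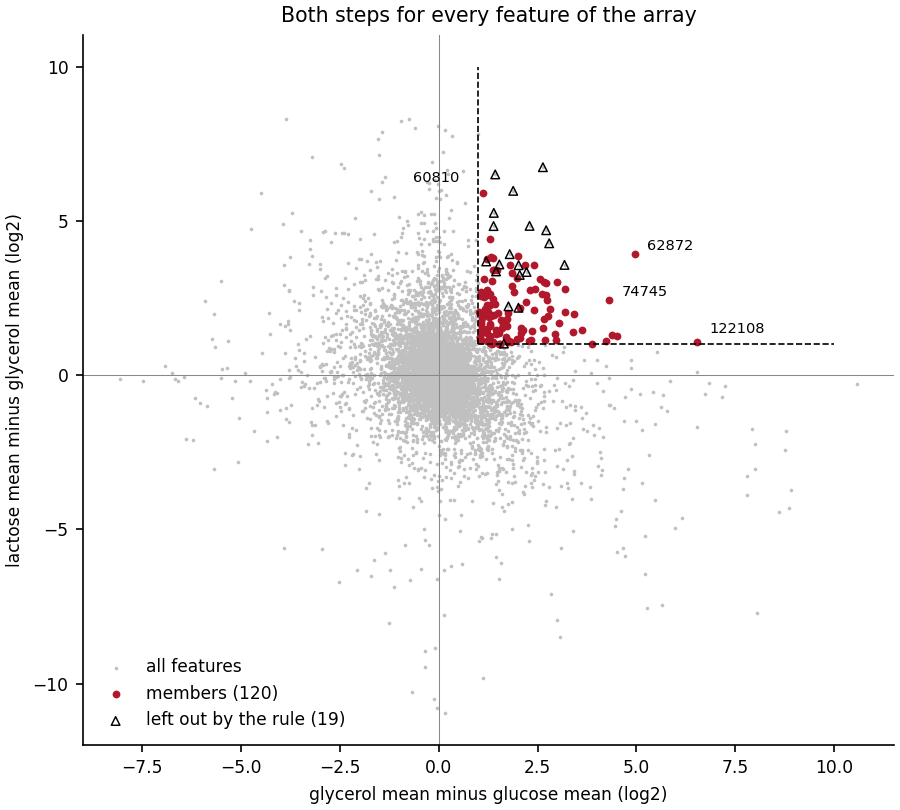
The x axis plots the glycerol mean minus the glucose mean and the y axis the lactose mean minus the glycerol mean (log2, mean of 2 arrays each) for all 9126 features in grey, the 120 members in red and the 19 genes left out by the rule as open triangles. Dashed lines mark the step of 1 on each axis, and 21 members lie within 0.1 of a line while Trire2:62872 lies far from both.

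Over the 120 members the median step was 1.57 between glycerol and glucose and 1.84 between lactose and glycerol, and the median difference between lactose and glucose was 3.66 on the log2 scale. Wherever a pair of steps is given for a gene, the first is glycerol over glucose and the second lactose over glycerol, both in log2 units. The step between lactose and glycerol was the larger one in 67 members and the step between glycerol and glucose in 53. Both steps reached at least 2, which is 4-fold, in 20 members. As a frame for these counts, the limma fit called 15.5% of all features higher and 13.9% lower on lactose than on glucose, 14.6% higher and 12.5% lower on lactose than on glycerol, and 9.07% higher and 8.49% lower on glycerol than on glucose. All 120 members are among the higher ones in each comparison, which the rule nearly fixes. The other orders of the 3 carbon sources with 2 such steps were held by 34 to 116 genes. The largest of these other sets, with glucose highest, glycerol in the middle and lactose lowest, had 116 genes, or 1.27% of the features, against 1.52% for the order described here.

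No member had overlapping arrays between neighbouring carbon sources. Steps of at least 1 between the means nearly fix this, so it is no result about the members. The share of all features without overlap was not counted. The smallest distance between the lower lactose array and the higher glycerol array was 0.59, in the MFS permease gene Trire2:104320. Between the lower glycerol array and the higher glucose array it was 0.49, in Trire2:122198, which the study annotates as a unique protein. A step moved by over 1.5 times without 1 of the arrays in 4 members. In Trire2:104320 the step to lactose of 1.03 was 0.67 without glycerol replicate 1. The step between glycerol and glucose was 0.70 without glycerol replicate 1 in Trire2:122198, against 1.07 with it, and 0.71 without glucose replicate 1 in Trire2:104073, against 1.10 with it. In Trire2:111887 it was 1.20 without glucose replicate 2, against 1.84 with it. With single arrays in place of means, 78 members kept a distance of at least 1 in both steps. The pooled SD of the 2 arrays had a median of 0.154 over the members, against 0.133 over all features. In 10 members both glycerol arrays held the identical value, as they did in 231 of all features, so that a spread of 0 in these genes does not measure an error.

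Member signals covered most of the scale of the array. Mean signals ran from 5.32 to 14.51 on lactose, from 4.22 to 13.30 on glycerol and from 2.88 to 12.01 on glucose, with medians of 10.93, 9.19 and 6.93. Below the 10th percentile of all signals, at 4.66, the mean of no member was found on lactose, of 3 on glycerol and of 23 on glucose. Signals below 4.66 are called the floor of the array here, although the lowest signal was 2.70. In the 23 genes the comparison with glucose is one with this floor, and its size is less certain than in the other 97. They include Trire2:55723, Trire2:60374, Trire2:61293, Trire2:107042, Trire2:106615, Trire2:28036 and Trire2:111887, which are not marked again below. The 3 genes this low on glycerol, Trire2:70956, Trire2:72086 and Trire2:123095, were lower still on glucose. Their step to lactose is also less certain in size.

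**Figure D2:**
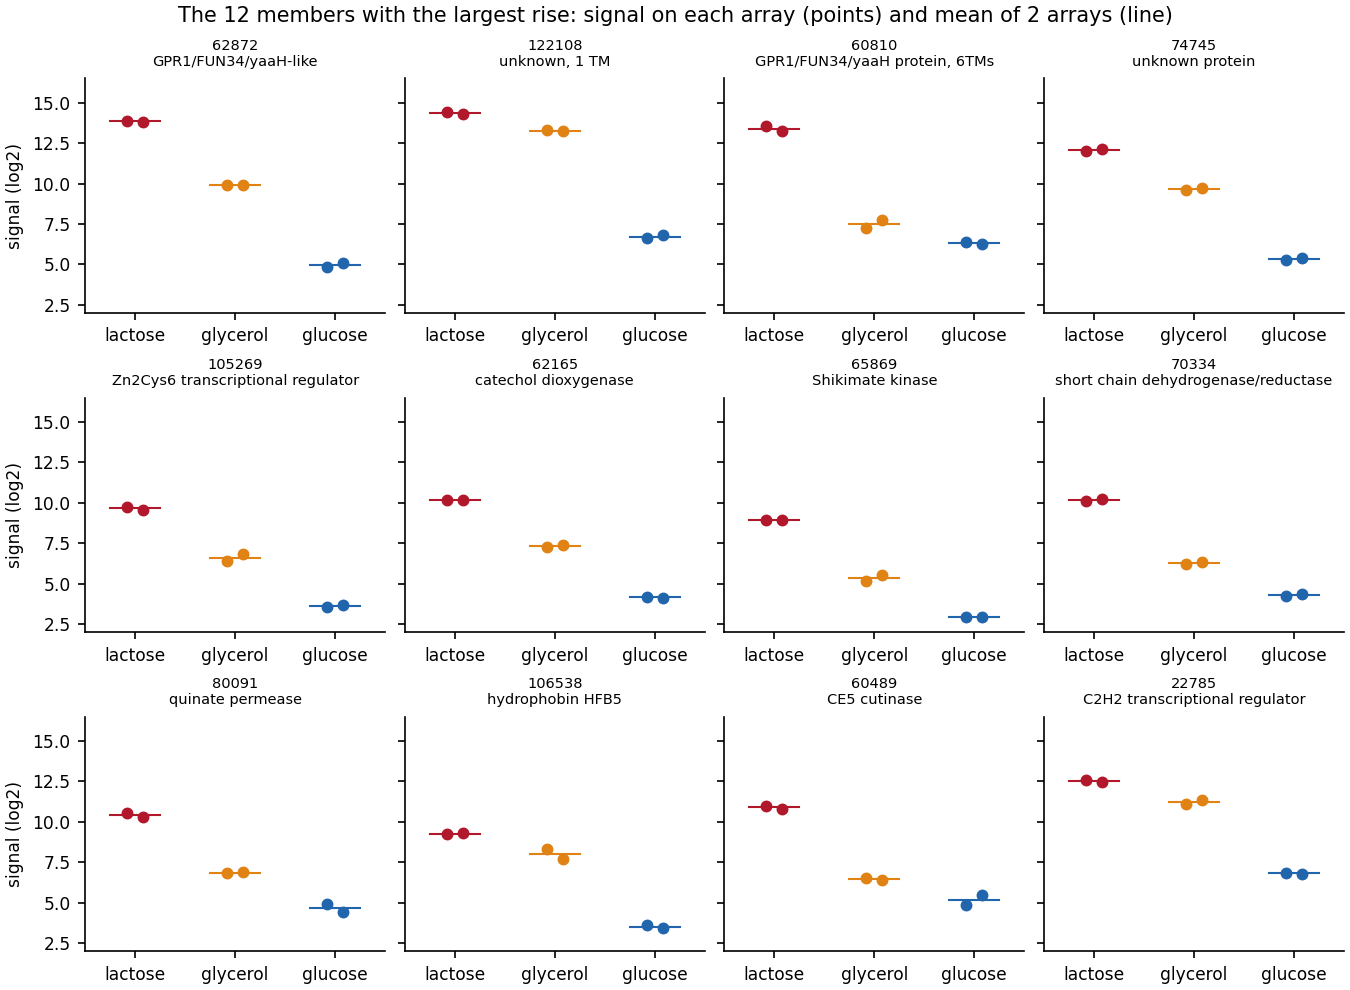
Log2 signal on each array (points) and mean of the 2 arrays (lines) for the 12 members with the largest difference between lactose and glucose, with lactose in red, glycerol in orange and glucose in blue. Trire2:122108 and Trire2:106538 lie near their lactose level on glycerol, whereas Trire2:60810 and Trire2:60489 lie near their glucose level.

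Transport across membranes was the best represented function among the members with an annotation. MFS permeases made up 16 of the 120 members, or 13.3%, and 49 of the other 760 genes that the study lists as higher on lactose than on both other carbon sources, or 6.45%. The words that define the function groups left 1 member (0.833%) in no group, but 171 of these 760 genes (22.5%). Shares of members and of other genes in a group, here and below, are therefore not fully comparable. Within the 16 permeases the steps ran from 1.26 to 3.19 between glycerol and glucose and from 1.03 to 3.58 between lactose and glycerol. In 6 of them both steps were over 2, and in 10 the step to lactose was the larger one.

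The permease with the largest smaller step was Trire2:123241, which had signals of 11.78 and 12.06 on lactose, 8.96 and 8.81 on glycerol, and 6.26 and 6.20 on glucose. Trire2:22912, named hxt1 in RefSeq after the hexose transporters of Saccharomyces cerevisiae, had 12.82 and 12.90 on lactose, 9.90 and 9.54 on glycerol, and 7.20 and 7.13 on glucose. In both genes the 3 carbon sources were spaced almost evenly, with steps of 2.66 and 3.03 in the first and of 2.55 and 3.14 in the second. Trire2:80091, annotated as a quinate permease, had 10.54 and 10.31 on lactose, 6.82 and 6.87 on glycerol, and 4.92 and 4.41 on glucose. Its step to lactose was 3.58, the largest of the 16 permeases, and its step between glycerol and glucose was 2.18. Trire2:111888 stepped by 2.22 and then 2.36 and Trire2:67752 by 2.82 and then 2.14. The permease with the smallest part of its rise on glycerol was Trire2:56095, with 14.39 and 14.15 on lactose, 10.74 and 10.95 on glycerol, and 9.31 and 9.59 on glucose, so that 28.9% of its log2 rise from glucose was present there. Trire2:28409 came closest to its lactose level on glycerol, with 72.4%.

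The gene with the largest difference of all members encodes another kind of carrier. Trire2:62872 is annotated as GPR1/FUN34/yaaH-like, a family that includes the acetate permease Ady2 of Saccharomyces cerevisiae, and it had 13.87 and 13.83 on lactose, 9.90 and 9.94 on glycerol, and 4.83 and 5.10 on glucose. Its steps of 4.96 and 3.93 amount to 31.1-fold and 15.2-fold, and lactose stood 473-fold above glucose (log2 8.89, SE 0.126). Trire2:60810, a second member of the same family with 6 predicted transmembrane segments, had 13.55 and 13.22 on lactose, 7.22 and 7.71 on glycerol, and 6.40 and 6.27 on glucose. The carriers differed in where they stepped, with 55.8% of the log2 rise present on glycerol in Trire2:62872 and 16.0% in Trire2:60810, the lowest share of all 120 members.

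The other 4 transporters are mitochondrial carriers, an ion pump and an amino acid carrier. The mitochondrial succinate/fumarate antiporter Trire2:121743, which in yeast brings succinate of the glyoxylate cycle into the mitochondrion, had 13.54 and 13.36 on lactose, 10.77 and 10.58 on glycerol, and 8.24 and 8.49 on glucose. A mitochondrial oxoglutarate/malate carrier gene, Trire2:47930, had means of 8.33 on lactose, 6.92 on glycerol and 3.52 on glucose, with 70.6% of its rise on glycerol. Its glucose mean was at the floor of the array, so that this share is uncertain. Trire2:81430, a cation transporting ATPase, had steps of 2.72 and then 2.59. The amino acid transporter gene Trire2:55723 had 1.30 between glycerol and glucose and 2.64 between lactose and glycerol.

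Of the genes for regulators, 4 were members, 3 with a Zn2Cys6 zinc cluster and 1 with C2H2 zinc fingers. They made up 3.33% of the members, and regulators made up 6.45% of the other 760 genes listed as higher on lactose. The regulator genes xyr1 and Trire2:65854 met both steps but are left out by the rule, which lowers the share of the members. The Zn2Cys6 gene Trire2:105269 had 9.72 and 9.57 on lactose, 6.40 and 6.82 on glycerol, and 3.53 and 3.69 on glucose, so that glycerol exceeded glucose 8.01-fold and lactose exceeded glycerol 8.19-fold. Its glucose signals were among the lowest 10% on the arrays. The C2H2 gene Trire2:22785, which the study marks with a query as amdA, in Aspergillus nidulans an activator of genes for the use of acetamide and acetate, had 12.61 and 12.45 on lactose, 11.09 and 11.34 on glycerol, and 6.86 and 6.79 on glucose. Most of the difference from glucose to lactose, 4.39 of 5.71 on the log2 scale, lay between glycerol and glucose. Trire2:112134 had steps of 2.67 and 1.83, and Trire2:54502 of 1.30 and 1.60.

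Both receptor genes of the set encode proteins of the G-protein coupled type. Trire2:63981, which also holds an RGS domain, a kind of domain that speeds GTP hydrolysis by G-alpha subunits, had 11.69 and 11.80 on lactose, 10.23 and 10.39 on glycerol, and 8.02 and 7.87 on glucose. Trire2:107042 belongs to the PTH11 class, named after a receptor of the rice blast fungus, and had 6.33 and 6.39 on lactose, 4.79 and 4.85 on glycerol, and 3.58 and 3.90 on glucose.

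Acetate, organic acid and central carbon metabolism contributed 7 members, or 5.83%, and 6 of the other 760 genes listed as higher on lactose, or 0.789%. The group words left 22.5% of these other genes unsorted, against 0.833% of the members, so the difference between the shares was not interpreted. Malate synthase, one of the enzymes particular to the glyoxylate cycle, is encoded by Trire2:79271 (acu9), which had 13.93 and 14.09 on lactose, 12.76 and 12.74 on glycerol, and 11.50 and 11.38 on glucose. Its steps were even, at 1.31 and 1.26. Trire2:54870, an acetate-CoA ligase gene whose product activates acetate, had 12.80 and 12.77 on lactose, 11.64 and 11.92 on glycerol, and 10.51 and 10.36 on glucose. Its step to lactose of 1.01 was the smallest smaller step of all members. Trire2:121405, a 4-aminobutyrate aminotransferase gene, had the largest smaller step here, with 12.09 and 12.19 on lactose, 10.10 and 9.94 on glycerol, and 7.71 and 7.53 on glucose.

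Within the same group, Trire2:112126 for methylmalonate semialdehyde dehydrogenase, an enzyme of valine breakdown, rested mainly on lactose, with steps of 1.38 and then 3.41. The NAD(P) transhydrogenase beta subunit gene Trire2:47432 showed the opposite weight, with 2.70 between glycerol and glucose and 1.15 between lactose and glycerol. A transketolase gene, Trire2:2211, had 1.17 and 2.16 with a glucose mean among the lowest 10% of signals, and an acetoacetyl-CoA synthase-like gene, Trire2:59843, had 1.06 and 1.13.

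Not every gene of these routes had the stepwise pattern. Of 8 genes that carry a RefSeq symbol for the citrate and glyoxylate cycle, acetyl-CoA formation or pyruvate carboxylase, acu9 alone was a member. Of all features 1.52% met both steps. Among the other 7 genes, by the limma fit, 1 was higher and 1 lower on lactose than on glucose, beside 15.5% and 13.9% of all features. None was called between lactose and glycerol (2 higher and 2 lower at an unadjusted p under 0.05), beside 14.6% and 12.5%. On glycerol against glucose 1 was higher and none lower (1 and 3 by the unadjusted p), beside 9.07% and 8.49%. The one that was higher in both comparisons with glucose is Trire2:21758 (acu3), named after the isocitrate lyase gene of Neurospora crassa. It had 14.93 and 14.62 on lactose, 14.40 and 14.40 on glycerol, and 12.01 and 12.12 on glucose. On glycerol it exceeded glucose by 2.33 (SE 0.134, limma adjusted p = 2.81e-06), but lactose exceeded glycerol by only 0.38 (adjusted p = 0.0374), which is under 2-fold.

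The group called aromatic and quinate enzymes here held 4 members. Trire2:62165, a catechol dioxygenase gene whose product opens the aromatic ring of catechol, had 10.14 and 10.16 on lactose, 7.28 and 7.41 on glycerol, and 4.17 and 4.13 on glucose. The shikimate kinase gene Trire2:65869 had 8.90 and 8.91 on lactose, 5.13 and 5.55 on glycerol, and 2.95 and 2.91 on glucose. For both, the glucose arrays stood among the lowest 10% of all signals, and lactose exceeded glucose 64.2-fold in the first and 63.0-fold in the second. The genes for carboxy-cis,cis-muconate cyclase, Trire2:4875, with steps of 1.08 and 1.13, and for 4,5-dihydroxyphthalate decarboxylase, Trire2:112521, with 1.21 and 1.37, only just met the rule.

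Oxidoreductases numbered 10, and as a group they leaned to lactose. In 8 of the 10 the step between lactose and glycerol was the larger one, and a median of 35.6% of the log2 rise was present on glycerol, against 48.4% over all members. The flavin-containing monooxygenase gene Trire2:76696 had 13.24 and 13.33 on lactose, 10.40 and 10.60 on glycerol, and 7.90 and 8.21 on glucose. The cytochrome P450 gene Trire2:67964 had 13.37 and 13.04 on lactose, 10.61 and 10.90 on glycerol, and 7.93 and 8.11 on glucose. The carbon sources were evenly spaced in both genes, with steps of 2.44 and 2.78 in the first and of 2.73 and 2.45 in the second.

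Genes for short chain dehydrogenases/reductases, a family of NAD(P)H-dependent enzymes, were found 3 times, and all of them had a larger step to lactose. Trire2:70334 stepped by 2.02 and then 3.88, Trire2:60517 by 1.80 and then 3.57, and Trire2:4682 by 1.15 and then 3.13. The glucose mean of Trire2:70334 was at the floor of the array, so that its first step is less certain in size. The further P450 genes Trire2:64900 and Trire2:70956 had steps of 1.37 and 1.06 and of 1.11 and 1.98. The means of the second of these genes were below 4.66 on glycerol and on glucose, so that the size of its steps is less certain. Trire2:62367, for the molybdopterin-binding component of sulfite oxidase, had 1.31 and 1.65. The arsenate reductase gene Trire2:59402 had glucose arrays of 5.81 and 6.58, a wide spread, and the GMC oxidoreductase gene Trire2:60374 had steps of 1.24 and 2.26.

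Peptidases, amidases, esterases and related enzymes numbered 10, with steps of 1.10 to 2.76 between glycerol and glucose and of 1.09 to 3.42 between lactose and glycerol. Trire2:62576, an alpha/beta hydrolase gene, had the largest smaller step, with 11.96 and 11.68 on lactose, 10.06 and 9.73 on glycerol, and 6.97 and 7.30 on glucose. The amidase genes Trire2:68615 and Trire2:70375 had steps of 1.70 and 1.63 and of 1.21 and 2.30. Trire2:61293, for a dipeptidyl peptidase, stood out by its step to lactose of 3.42, with 8.70 and 8.57 on lactose, 5.27 and 5.16 on glycerol, and 3.81 and 3.65 on glucose. Genes for carboxypeptidases, which remove amino acids from the end of a protein, were represented by Trire2:22459, Trire2:22210 and Trire2:72086, each with a step to lactose of between 1.09 and 1.36. In Trire2:72086 both glycerol arrays read 4.22, below 4.66 though above its glucose arrays. The group also holds a carboxylesterase gene, Trire2:78828, with 1.62 and 1.66, an adenosine deaminase gene, Trire2:69753, with 1.12 and 1.39, and an aspartate racemase gene, Trire2:104073, with 1.10 and 1.86. The glucose arrays of Trire2:104073 lay apart, at 6.24 and 7.01, and without glucose replicate 1 its step between glycerol and glucose was 0.71, below the threshold of the rule.

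Enzymes annotated to a glycoside hydrolase (GH) or carbohydrate esterase (CE) family numbered 7, or 5.83% of the members, and 7.11% of the other 760 genes listed as higher on lactose, with the gene annotated as CIP1 counted among them. The genes that the rule leaves out include cel7a and further genes of GH families, and they count on neither side. Without them the share of the members is lowered. Among the 7 members were 2 trehalase genes, whose products split the storage sugar trehalose into glucose. The GH37 trehalase gene Trire2:123226 had 13.06 and 12.97 on lactose, 9.19 and 9.19 on glycerol, and averaged 7.88 ± 0.18 on glucose (SD, n = 2). The GH65 trehalase gene Trire2:123456 had 12.49 and 12.61 on lactose, 11.57 and 11.22 on glycerol, and 9.08 and 9.03 on glucose. The genes differed in where they stepped, since the GH37 gene had 25.6% of its log2 rise on glycerol and the GH65 gene 66.8%.

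A similar contrast lay between the alpha-galactosidase genes, whose enzymes remove terminal galactose residues. Trire2:124016 (GH36) had steps of 1.14 and then 2.53, and Trire2:72704 (GH27) of 1.75 and then 1.07. The CE5 cutinase gene Trire2:60489, for an esterase that cleaves the plant polyester cutin, had 11.01 and 10.77 on lactose, 6.50 and 6.41 on glycerol, and 4.85 and 5.48 on glucose. Its step to lactose of 4.43 was 21.6-fold. The CE4 polysaccharide deacetylase gene Trire2:65215 had 2.14 and 1.46.

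The GH18 gene Trire2:65162, chi18-rel1 by its RefSeq symbol, had 10.95 and 11.02 on lactose, 9.86 and 9.82 on glycerol, and 8.26 and 7.94 on glucose. It was the single member among 18 GH18 genes with a RefSeq symbol, a family that hydrolyses chitin. Of all features 1.52% met both steps, so a single member is no result about the family. Of the other 17 genes, by the limma fit, none was higher and 2 were lower on lactose than on glucose. Of all features 15.5% were higher and 13.9% lower. With no fold threshold, 7 were higher and 4 lower at an adjusted p under 0.05, and the counts at an unadjusted p under 0.05 were also 7 and 4. Against glycerol 3 were higher and 2 lower on lactose, beside 14.6% and 12.5% of all features. On glycerol against glucose, 2 were higher and 3 lower, beside 9.07% and 8.49%. These counts were not tested against the shares of all features. Of the 17 genes, 5 had means below 4.66 on all 3 carbon sources. Both genes called lower on lactose than on glucose, chi18-17 and chi18-12, had lactose means below 4.66 (3.02 and 4.31). The gene chi18-12 is also 1 of the 3 called higher against glycerol, where its mean was 3.13, so that these differences are uncertain in size. In the comparison of glycerol with glucose, chi18-2 was 3.38 higher on glycerol (SE 0.239, limma adjusted p = 9.48e-06). The gene chi18-12 was lower on glycerol (limma adjusted p = 7.60e-06), but both of its glycerol arrays read 3.13, at the floor of the array, against 6.52 and 6.43 on glucose, so that the size of the difference is not known.

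The group called surface proteins here held 2 members, and both had most of their difference between glycerol and glucose. The study annotates 1 of them as a hydrophobin and the other only as an unknown protein with a BYS1 domain. Hydrophobins are small secreted proteins that coat hyphae and spores with a water-repellent layer. The hydrophobin gene hfb5, Trire2:106538, had 9.23 and 9.30 on lactose, 8.34 and 7.68 on glycerol, and 3.60 and 3.42 on glucose. Trire2:59151, for a protein with a BYS1 domain, had 14.37 and 14.27 on lactose, 13.49 and 13.10 on glycerol, and 9.46 and 9.38 on glucose. Of their log2 rise, 78.2% and 79.1% was present on glycerol. The first share is uncertain in size, since hfb5 was at the floor of the array on glucose. The 3 hydrophobin genes with a RefSeq symbol are no members. By the limma fit hfb2 exceeded glucose by 6.57 on lactose and by 6.83 on glycerol, with no call between lactose and glycerol. The gene hfb3 was also higher than on glucose in both, with 13.76 and 13.67 on lactose, 14.02 and 13.99 on glycerol, and 3.15 and 3.71 on glucose, where it was at the floor of the array. By the same fit hfb1 was 2.47 higher on glycerol than on glucose but 2.79 lower on lactose than on glycerol (log2 -2.79).

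**Figure D3:**
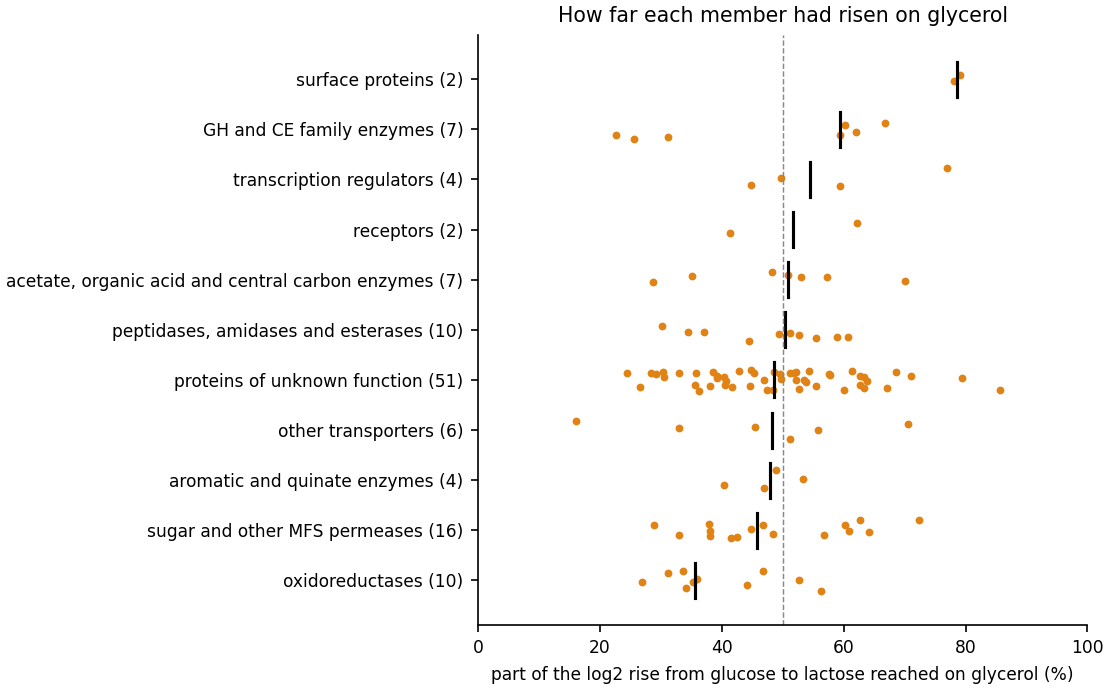
Part of the log2 rise from glucose to lactose that was already present on glycerol, in percent, for each member (points) by function group, with the number of members in brackets and the group median as a black bar. Medians run from 35.6% for the oxidoreductases to 78.6% for the group labelled surface proteins, whose range only the proteins of unknown function reach. The other groups overlap widely.

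The single member outside these groups and with an annotation is Trire2:2015, for an N-acetyltransferase related to GCN5, with 12.45 and 12.39 on lactose, 10.51 and 10.28 on glycerol, and 8.50 and 8.78 on glucose. Proteins of unknown function, including those annotated as unique, made up 51 of the 120 members, or 42.5%. Their share among the other 760 genes listed as higher on lactose was 42.4%. Of all members the largest step between glycerol and glucose was found among them, in Trire2:122108.

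Trire2:122108, for a protein with 1 predicted transmembrane segment, had 14.41 and 14.28 on lactose, 13.29 and 13.23 on glycerol, and 6.61 and 6.83 on glucose. Its step between glycerol and glucose was 6.54, or 92.9-fold, and 85.7% of its rise was present on glycerol, the highest share of all members. Trire2:74745 had 12.03 and 12.16 on lactose, 9.59 and 9.73 on glycerol, and 5.29 and 5.42 on glucose, with steps of 4.30 and 2.43. Trire2:4851 had a step of 4.24 between glycerol and glucose and of 1.10 between lactose and glycerol. At the other end stood genes that rested mainly on lactose, such as Trire2:106129 with 24.5% and Trire2:107914 with 26.5% of their rise on glycerol. The share of Trire2:107914 is uncertain, since its glucose mean was at the floor of the array.

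The largest smaller steps among the genes of unknown function were those of Trire2:112520 and Trire2:104322. Trire2:112520 had 8.50 and 8.73 on lactose, 5.68 and 5.54 on glycerol, and 2.89 and 2.92 on glucose. Trire2:104322 had 14.24 and 14.02 on lactose, 11.38 and 11.60 on glycerol, and 8.95 and 8.81 on glucose. The first was thus at the floor of the array on glucose, and the second stood above the floor on all carbon sources. Trire2:48080 had steps of 2.05 and 2.18 and Trire2:53824, for a secreted protein, of 3.41 and 1.98. Far from the floor on every array was Trire2:41518, with 14.46 and 14.56 on lactose, 13.19 and 12.98 on glycerol, and 12.20 and 11.82 on glucose. In Trire2:111887 the glucose arrays read 4.77 and 3.48, the widest gap of any member within a carbon source.

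The threshold of 1 cuts through a continuous range of genes. Within 0.1 above it lay 21 members, and within 0.1 below it 25 genes. Just inside, by the smaller step, were Trire2:54870 (1.01), Trire2:62285 (1.01), Trire2:1999 (1.02), Trire2:59151 (1.02) and Trire2:104320 (1.03). Just outside were the Zn2Cys6 gene Trire2:120228, with a step of 0.999 between glycerol and glucose, Trire2:122582 (0.993), the MFS permease gene Trire2:105260 (0.991), Trire2:124115 (0.990) and Trire2:103668 (0.981). Trire2:105260 nevertheless had a step of 7.84 between lactose and glycerol, larger than that of any member. The study's own qPCR gave this gene a lower mean level on lactose than on glucose, although the study's text reports upregulation of the permeases by qPCR. That text places the qPCR at 24 h of growth, and the study's supplement gives a later time. On the arrays the gene was higher on lactose. With a step of 0.8 the rule took 179 genes, with 1.5 it took 39 and with 2 it took 20.

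The rule used no genome position, and the order of the genes in the RefSeq annotation of strain QM6a could be read for 119 members. Of these, 13, or 10.9%, lay directly beside another member, whereas 232 of 9094 features with a position, or 2.55%, lay beside a member. Both are counts and were not tested. Runs in which genes with the stepwise pattern were at most 1 gene apart and that hold at least 2 members numbered 9, with 20 members and 3 genes that the rule leaves out.

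**Figure D4:**
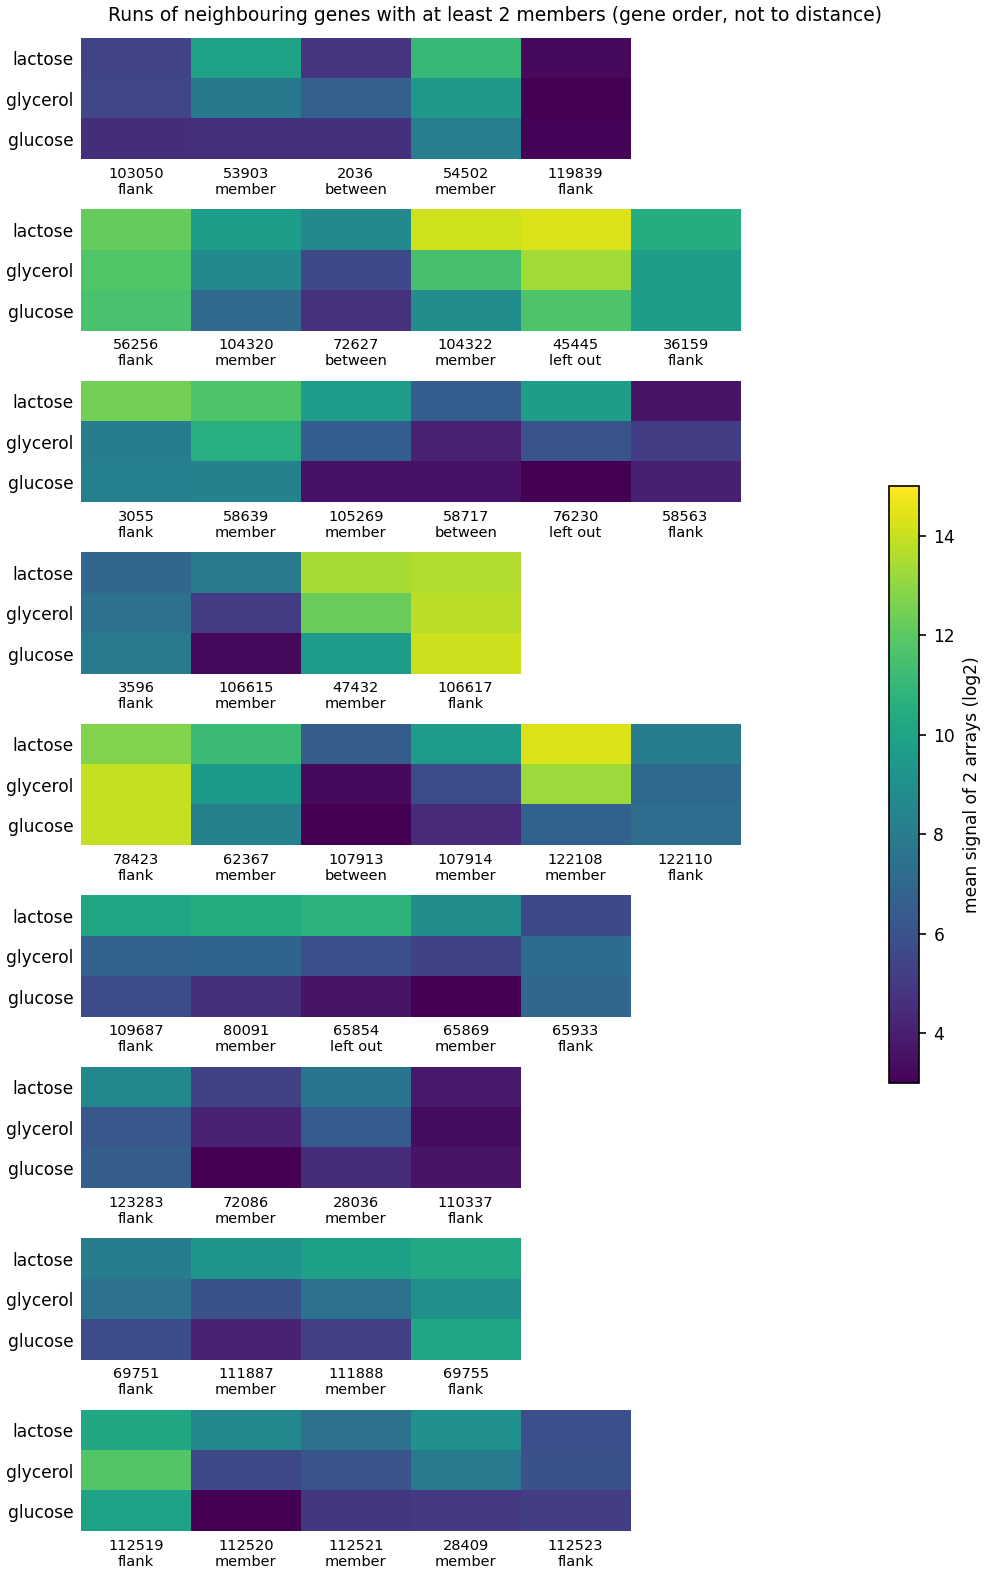
Mean log2 signal (2 arrays, colour scale) on lactose, glycerol and glucose, from top to bottom in each panel, for the 9 runs of neighbouring genes and the gene on each side of them. Protein numbers stand below the columns with the status of each gene, where "between" and "flank" are genes without the stepwise pattern, and gene order is shown without distances.

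The longest run of directly adjacent members was that of Trire2:112520, the 4,5-dihydroxyphthalate decarboxylase gene Trire2:112521 and the MFS transporter gene Trire2:28409. Glycerol exceeded glucose 6.52-fold, 2.31-fold and 7.84-fold in these genes, and lactose exceeded glycerol 8.03-fold, 2.58-fold and 2.19-fold. The gene beside them, Trire2:112519, was highest on glycerol, with 10.18 and 10.23 on lactose, 11.97 and 11.65 on glycerol, and 10.01 and 9.81 on glucose. Lactose was 1.61 below glycerol in it by the limma fit (log2 -1.61, adjusted p = 2.38e-05).

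The quinate permease gene Trire2:80091 and the shikimate kinase gene Trire2:65869 lay on both sides of a Zn2Cys6 gene, Trire2:65854, which met both steps as well and is left out by the rule. Next to the permease gene lay the shikimate dehydrogenase gene Trire2:109687, with 10.02 and 10.09 on lactose, 6.69 and 6.89 on glycerol, and 5.69 and 5.95 on glucose. It is no member because its difference between glycerol and glucose of 0.97 falls short of the rule, while lactose exceeded glycerol by 3.26 (SE 0.136, limma adjusted p = 2.62e-07).

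In another run the genes Trire2:107914 and Trire2:122108 were direct neighbours, but they differed in where they stepped. Trire2:107914 had 9.63 and 9.57 on lactose, 5.81 and 5.78 on glycerol, and 4.31 and 4.54 on glucose, so that its step to lactose of 3.80 was the larger one. In Trire2:122108 the step between glycerol and glucose was by far the larger one. The gene on the other side of Trire2:107914, Trire2:107913, had 6.64 and 6.46 on lactose, 3.41 and 3.18 on glycerol, and 2.95 and 3.14 on glucose. It was higher on lactose than on glycerol (limma adjusted p = 2.89e-07), but on glycerol and on glucose it was at the floor of the array, so that its size and any step between these carbon sources are not known. Beyond it lay the sulfite oxidase gene Trire2:62367.

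The regulator gene Trire2:105269 lay beside Trire2:58639, of unknown function, which had 11.65 and 11.71 on lactose, 10.61 and 10.51 on glycerol, and 8.17 and 8.38 on glucose. Trire2:54502, another Zn2Cys6 gene, was 1 gene apart from the MFS transporter gene Trire2:53903, which had steps of 3.19 and 2.05. The gene between them, Trire2:2036, was highest on glycerol, with 4.40 and 5.22 on lactose, 6.75 and 6.65 on glycerol, and 4.85 and 4.47 on glucose. MFS genes were also the neighbours of Trire2:72086 (Trire2:28036, steps of 1.97 and 1.18), of Trire2:111887 (Trire2:111888) and, 1 gene apart, of Trire2:104322 (Trire2:104320, steps of 1.56 and 1.03). The transhydrogenase gene Trire2:47432 lay beside Trire2:106615, of unknown function, with 1.86 and 2.90.

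The direct neighbours of members that did not themselves meet both steps numbered 215. On lactose against glucose 34.9% of them were higher and 8.37% lower by the limma fit, beside 15.5% and 13.9% of all features. On lactose against glycerol 28.4% were higher and 12.1% lower, beside 14.6% and 12.5%, and on glycerol against glucose 14.4% were higher and 7.91% lower, beside 9.07% and 8.49%. Genes with the full pattern are missing from this set by construction, and the difference from all features was not tested. By RefSeq gene length, members had a median of 1359 bases and all features 1503.

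The other genes that the study lists as higher on lactose were chosen on these arrays, and none of the 760 can be over 2-fold higher on glycerol than on glucose, since such a gene would have met the rule. On glycerol against glucose 70 of them, or 9.21%, were lower, beside 8.49% of all features. This share is near that of all features and is not read as a trait of these families. Single genes with this placing of glycerol follow as examples. Among the 49 other MFS permeases 5, or 10.2%, were lower on glycerol than on glucose. The largest difference was that of Trire2:68122, with means of 14.46 on lactose, 9.18 on glycerol and 12.88 on glucose. A sulfite oxidase gene other than the member, Trire2:76601, had 12.36, 7.74 and 10.37 in the same order, and a GH1 beta-glucosidase gene, Trire2:120749, had 12.90, 6.03 and 8.50. Of the 49 other regulators 1, or 2.04%, was lower on glycerol, the bZIP gene Trire2:72524 with 9.43, 6.18 and 8.07.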

How the data were processed

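RNA of T. reesei QM9414 was hybridised to 6 NimbleGen arrays in a single colour, with 2 arrays for each of 3 carbon sources. The authors deposited log2 signals, 1 per feature and array, which per their processing notes were summarised by RMA, with settings not given in the sources used here. These values were used unchanged, and no feature was left out. The authors' table of means and folds was not used, and 0 columns of values per array were left over. The members and lists were chosen with earlier results of these data known. Function groups came from words in the study's annotation of 1540 genes, which had been selected on these arrays. The rule for named members took up to 5 per group by the smaller step, the largest differences, those next to the threshold and those in runs, and further members were named after their values were seen.

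All 9126 features were fitted with limma 3.58.1 in R 4.3.3 (lmFit and eBayes, all 3 groups in one fit, residual degrees of freedom 3, prior SD 0.135 with 5.10 degrees of freedom). A call needs over 2-fold and a Benjamini-Hochberg adjusted p under 0.05. The fit was tested on simulated data with known changes. The number of arrays limits the precision. Replicate numbers do not pair the arrays, since arrays of the same number showed correlations of their deviations from the group means of r = -0.01 (lactose and glucose), -0.14 (lactose and glycerol) and 0.07 (glycerol and glucose). RefSeq loci matched 9094 features and 119 members and gave symbols, gene lengths and neighbours only. Python 3.11.15 with numpy 2.4.6, pandas 2.3.3 and matplotlib 3.10.9 was used for counts and figures.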

Additional observations from a re-analysis of the deposited data

How the results depend on the processing

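The set depends most on its own threshold. Against 120 members, a step of 1.5 left 39 genes and a step of 2 left 20, a distance of 1 between all single arrays left 78, and without the dimmest 25% of features 72 remained. Further quantile normalization gave 115 genes, a shift of all arrays to the same median 120, and leaving out single arrays 114 to 130, but 87 of the 120 members (72.5%) met the rule in all 6 of these last settings. The median step between glycerol and glucose lay between 1.57 and 1.64 and that between lactose and glycerol between 1.83 and 1.90 when single arrays were left out. An adjusted p under 0.05 without a fold threshold raised the calls to 2649 higher and 3094 lower on lactose than on glucose (1417 and 1264 with the threshold), to 2583 and 2873 on lactose than on glycerol (1331 and 1145) and to 1854 and 2045 on glycerol than on glucose (828 and 775). Without the dimmest 25% of features there were 910 higher on lactose than on glucose, 795 higher on lactose than on glycerol and 473 lower on glycerol than on glucose. Each of these counts fell by more than the 25% of features removed, so such calls were more frequent among the dim features. With the replicate number as a block the counts were 1417 and 1264, 1331 and 1145, and 827 and 775, with 120 members, so the block changed no other call count by over 1 gene. Crossing the 2 glycerol numbers, an alternative chosen after seeing the data, gave 827 and 775 for glycerol against glucose and the same counts as the block for the others. Over quantile normalization, the shift to the same median and the settings without an array, 36 of the 120 members fell below a step of 1 at least once (lowest 0.67, Trire2:104320 without glycerol replicate 1), and no step changed sign. Of 251 alternative values for 22 genes that are no members, 246 kept their call. A comparison by protein similarity was not run. Signals near the floor on glucose limit the size of the difference in 23 members, 3 of them also on glycerol.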
